A study of Mus musculus with 12 samples.

Results

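The transcriptome of CD8+ T cells that had been activated under sodium lactate was set against that of naïve CD8+ T cells. The comparison took every library of both groups, 8 of the 12 in the series: 4 lactate libraries and 4 naïve libraries. All genes were eligible, and 13767 of the 13780 genes in the deposited table passed the filter on low counts. CD8+ T cells came from the spleens of young adult C57BL/6J mice and were purified with magnetic beads. Naïve cells received no treatment and were frozen in lysis buffer directly after purification. For the other groups, cells were stimulated for 72 h with beads that carry antibodies to CD3 and CD28, in the presence of 10 U/ml IL-2, either in plain media or with 40 mM sodium lactate added, and the 4 libraries from plain media are given beside the results as the reference for activation alone. The naïve group was defined by the lack of stimulation and not by a sort on surface markers, and the activated groups had no control with another sodium salt. Per the study, the replicates of a group came from separate mice. Several libraries held both Y-linked transcripts and Xist, and whether each library came from a single mouse was not tested. A comparison of lactate with naïve libraries covers stimulation, IL-2, 72 h of culture, added lactate and added sodium, and these cannot be told apart in it.

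Naïve T cells circulate through lymphoid organs in a resting state that transcription factors such as KLF2, FOXO1 and TCF-1 maintain. When the T cell receptor and CD28 are engaged, the cells grow, switch to aerobic glycolysis, build ribosomes and mitochondria, divide rapidly and, with IL-2, acquire the granules and cytokines of cytotoxic effector cells. Lactate is a product of that glycolysis, and it crosses the plasma membrane through monocarboxylate transporters together with a proton.

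Assigned reads per library ran from 16439750 to 18601223 in the naïve group and from 14726904 to 21478137 in the lactate group. T cell genes were abundant in both groups. Of 20 genes of the T cell receptor complex and CD8, 7 were lower with lactate, 1 was higher and 12 did not pass the test, and their summed level was 8886 to 13440 CPM (read counts relative to library size, with TMM scaling) in naïve libraries and 8520 to 9200 CPM with lactate. Cd8a was at 1025, 849, 1208 and 388 CPM in naïve replicates 1 to 4 and at 766, 931, 796 and 804 CPM in lactate replicates 1 to 4, with naïve replicate 4 below every other library. Markers of other cells moved with the comparison. All 12 tested B cell markers were lower with lactate, with a summed level of 3101 to 7690 CPM in naïve libraries and 254 to 339 CPM with lactate, and none of them was at 0 in every lactate library. All 11 myeloid markers were lower too, at 965 to 2569 CPM against 0.778 to 1.79 CPM, and Clec4a2, S100a8 and S100a9 had no count in any lactate library. The 7 genes of MHC class II and CD74 summed to 3457 to 6264 CPM against 86.3 to 154 CPM, the 9 dendritic cell markers, of which Siglech, Clec9a and Xcr1 had no count with lactate, to 421 to 912 CPM against 97.4 to 109.5 CPM, and the 5 red cell and platelet markers to 97.2 to 4174 CPM against 0.0708 to 1.90 CPM. The part of these cells in the genes below was not tested. In bulk RNA, fewer cells of a type and less RNA per cell cannot be told apart.

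**Figure D1:**
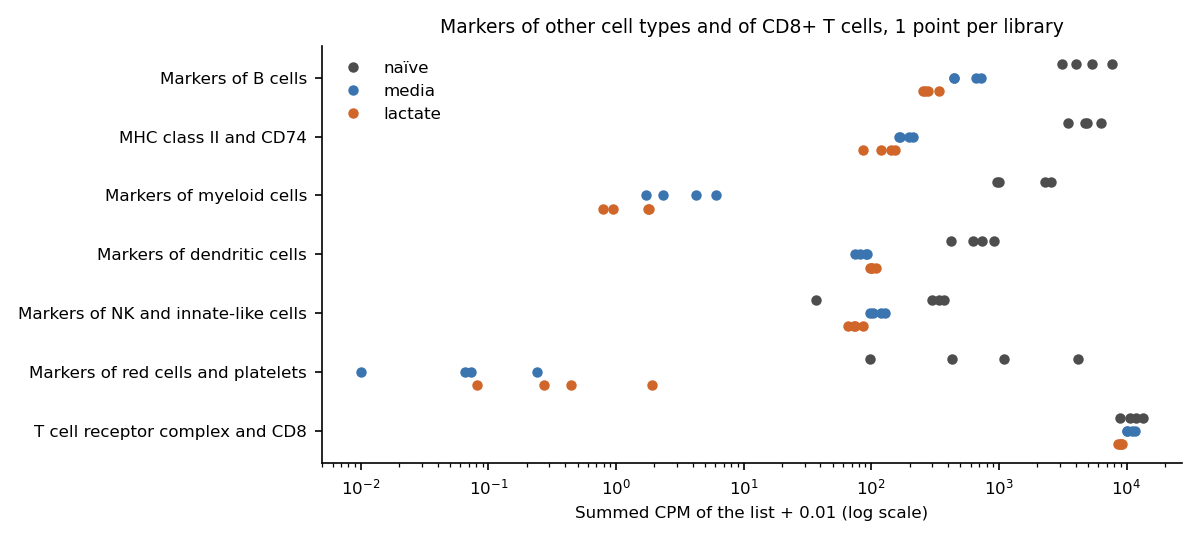
Summed level of 6 lists of markers of other cell types and of the genes of the T cell receptor complex and CD8 (x axis, CPM + 0.01, log scale), with 1 point per library and the groups in colour. Myeloid markers fell from 965 to 2569 CPM in naïve libraries to 0.778 to 1.79 CPM with lactate, while the T cell list stayed between 8520 and 13440 CPM in both groups.

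Naïve replicate 4 stood apart from its group. The library numbers in the descriptions fall into a low and a high run, and it is the only naïve library of the high run, which it shares with lactate replicates 3 and 4. Naïve replicates 1 to 3 and lactate replicates 1 and 2 carry numbers of the low run. The chi-square per degree of freedom between its counts and those of the other naïve libraries was 127 to 141, against 25.1 to 45.9 among those 3 and 5.88 to 40.9 within the lactate group. Results that rest on this library are given with and without it. Without it, 9434 genes passed the test in place of 8944, and 10 of the 20 T cell genes were lower and 2 were higher.

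Activation under lactate changed most of the measured transcriptome. In edgeR's quasi-likelihood test with Benjamini-Hochberg adjustment, which gives every adjusted p below, 8944 genes (65.0% of those tested) differed from naïve cells at an adjusted p of at most 0.01. Of these, 4545 (33.0%) were higher with lactate and 4399 (32.0%) were lower, and the median log2 fold change of all genes was 0.01. The lower side reached further: 931 genes (6.76%) fell at least 16-fold and 350 (2.54%) rose at least 16-fold. Of the 620 genes with at most 3 counts in every lactate library, 618 were lower with lactate, and together they held 0.63% to 1.69% of the counts of a naïve library. On the opposite side, 185 genes had at most 3 counts in every naïve library, and 183 of them were higher with lactate. Genes this low in a group passed the filter on low counts only through the other groups. The direction of these calls was therefore largely set by the selection. The lactate and naïve libraries did not overlap for 9332 genes (67.8%). Counts per list below are to be read against these shares. Against the same naïve libraries, activation in plain media changed 57.5% of the tested genes, with 28.5% higher and 29.0% lower.

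**Figure D2:**
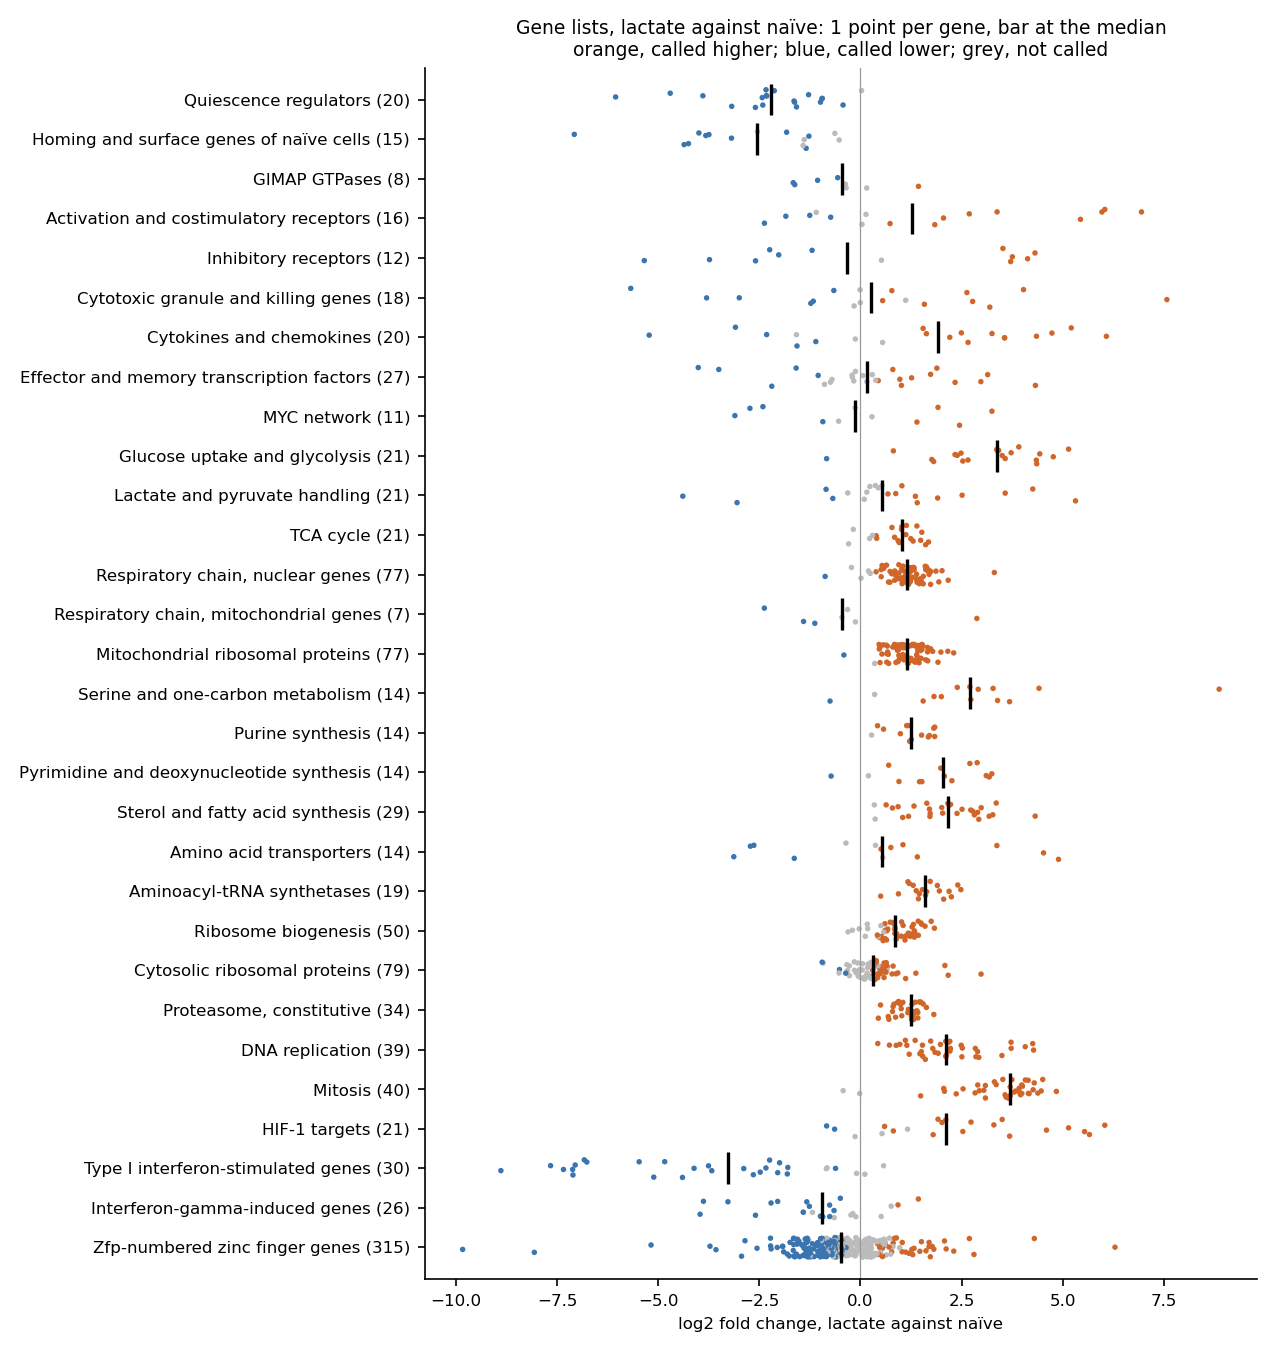
Log2 fold change of each gene in 30 lists, lactate against naïve (x axis), with the number of tested genes in brackets, a bar at the list median, orange for genes called higher, blue for genes called lower and grey for genes not called. Mitosis (3.70) and glycolysis (3.38) have the highest medians of the lists shown, and the type I interferon-stimulated genes the lowest (-3.28).

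Genes that hold T cells at rest fell together. Of 20 quiescence regulators, 19 were lower with lactate and none was higher (background 32.0% lower), with a median log2 fold change of -2.22. Klf2, the transcription factor that maintains quiescence and drives the receptors for recirculation, was at 2141, 1933, 2023 and 1118 CPM in naïve replicates 1 to 4 and at 7.23, 19.5, 33.5 and 48.5 CPM in lactate replicates 1 to 4, a 66.4-fold fall (log2 fold change -6.05 ± 0.66 SE, adjusted p = 3.45e-06). The naïve values lay far above every lactate value. Tcf7, which encodes TCF-1, fell from 1480, 1288, 1636 and 1950 CPM to 273, 257, 335 and 404 CPM (log2 fold change -2.32 ± 0.23 SE, adjusted p = 1.38e-06). Btg2, an antiproliferative regulator of mRNA decay, went from 597, 666, 549.5 and 297 CPM to 55.2, 57.1, 54.6 and 65.4 CPM (log2 fold change -3.18 ± 0.23 SE, adjusted p = 9.79e-08). Bach2, a repressor of effector genes, fell by less (log2 fold change -1.63 ± 0.39 SE, adjusted p = 0.00221), and naïve replicate 4, at 479.6 CPM, was far above the 123.6 to 138.6 CPM of the other naïve libraries. Without that library the log2 fold change of Bach2 was -0.90 (adjusted p = 0.000295). The quiescence list took 1.02% to 1.24% of the summed TPM (counts per gene length, scaled to the same total in each library) in naïve libraries and 0.136% to 0.198% with lactate.

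Surface genes of naïve cells followed. Of 15 such genes, 10 were lower and none was higher, with a median of -2.55. Without naïve replicate 4, 12 were lower and the median was -1.73, and the median was -1.71 within the low run and -3.23 within the high run. S1pr1, the receptor for exit from lymph nodes, fell from 470, 417, 470 and 955 CPM to 22.9, 28.6, 30.1 and 31.0 CPM (log2 fold change -4.36 ± 0.40 SE, adjusted p = 7.87e-07). The highest lactate value was far below the lowest naïve value, whereas Ccr7, the chemokine receptor of the T zone, fell by less, from 626, 429.5, 476 and 961 CPM to 187, 328, 242 and 274 CPM (log2 fold change -1.27 ± 0.25 SE, adjusted p = 0.000489). Il7r, the receptor for the survival cytokine IL-7, was at 347, 380.3, 373 and 1272 CPM and at 202, 196, 126 and 145 CPM (log2 fold change -1.83 ± 0.38 SE, adjusted p = 0.000856), and its fall was larger within the high run (-3.23) than within the low run (-0.88, interaction adjusted p = 0.000371). Without naïve replicate 4 it was -1.13. Itgae, the αE integrin that binds E-cadherin, and the gut homing receptor Ccr9, which was counted with the homing receptors of effector cells, were close to silent with lactate: Itgae was at 0.666, 1.52, 1.56 and 1.30 CPM after 244, 144, 204 and 83.9 CPM in naïve cells, and Ccr9 was at 0, 0, 0.142 and 0.0964 CPM after 232, 129, 239 and 39.7 CPM. Among 8 GIMAP genes, GTPases of lymphocyte survival, 4 were lower and 1 was higher: Gimap6 fell from 898 ± 22.3 CPM to 284 ± 20.4 CPM (mean ± SD, n = 4 each) while Gimap7 rose from 59.7 ± 19.7 CPM to 161 ± 24.6 CPM (log2 fold change 1.43 ± 0.23 SE, adjusted p = 9.70e-05).

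**Figure D3:**
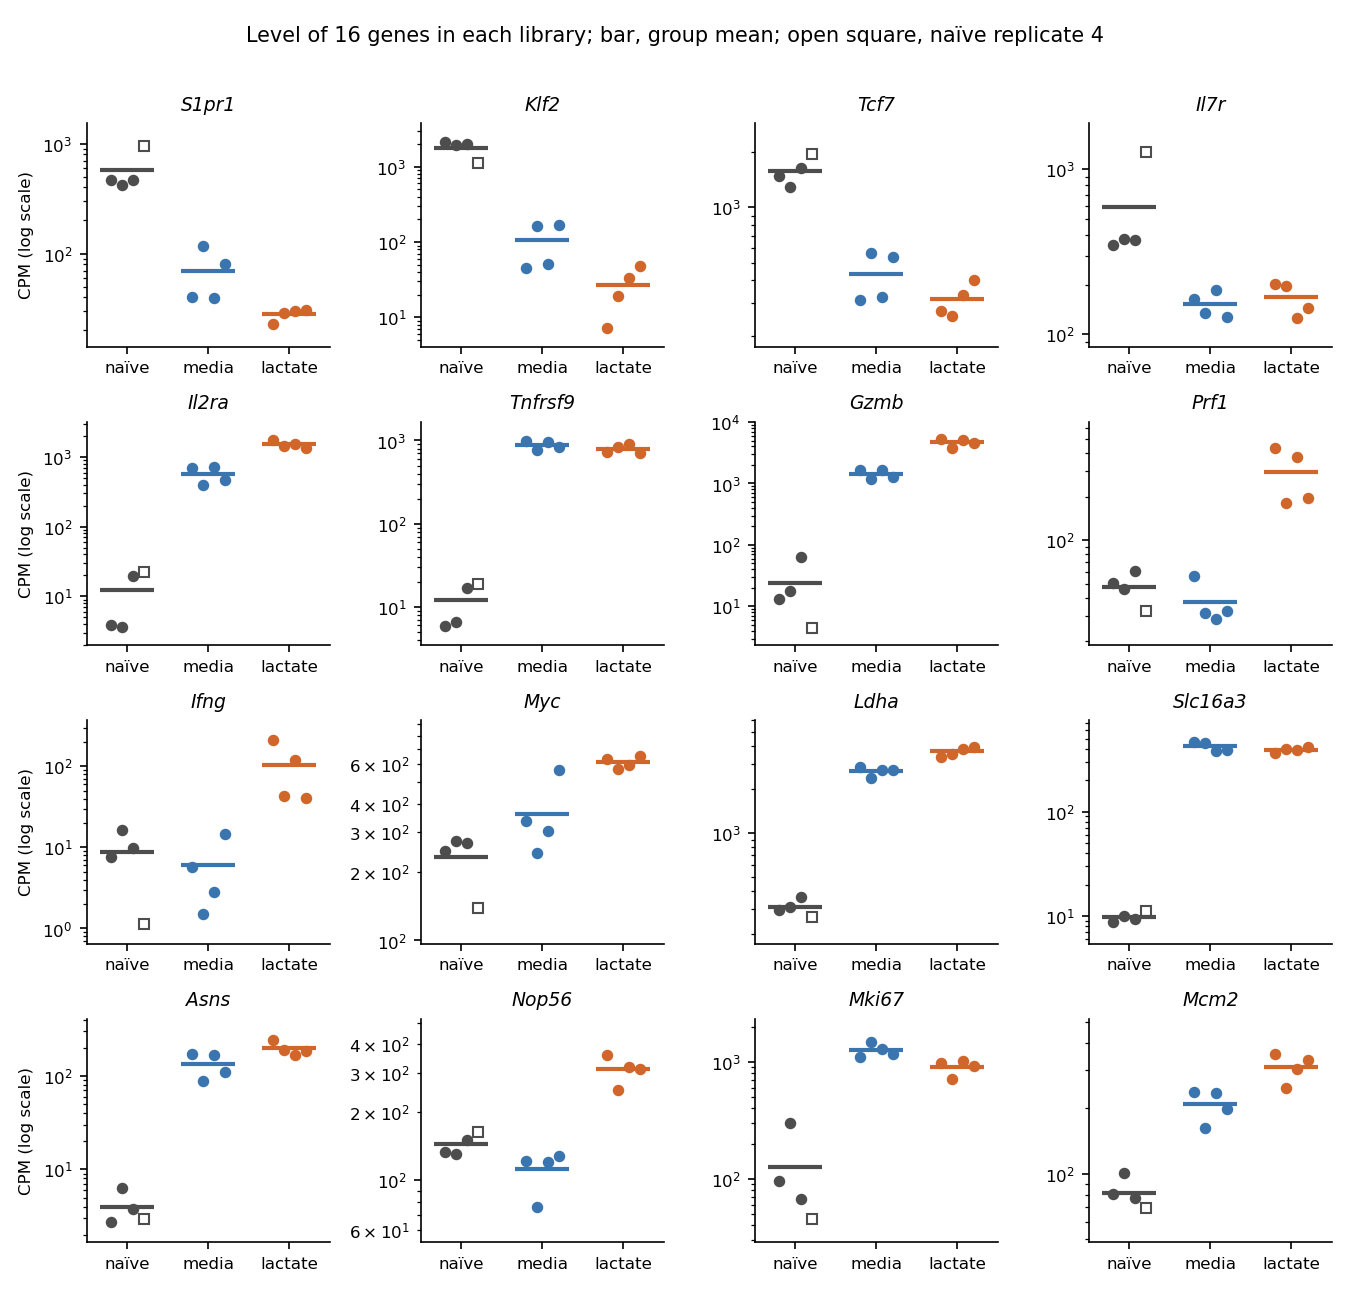
Level of 16 genes in each library (y axis, CPM, log scale) for the naïve, media and lactate groups, with a bar at the group mean and an open square for naïve replicate 4. The 4 lactate libraries of S1pr1 lie between 22.9 and 31.0 CPM, below every naïve library, and those of Gzmb between 3733 and 5307 CPM, above every naïve and every media library.

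Receptors for costimulation and growth signals rose, but not as a block. Of 16 activation receptors, 9 were higher (background 33.0%) and 4 were lower, with a median of 1.29. Il2ra, the α chain that completes the high-affinity IL-2 receptor, was at 3.83, 3.61, 19.3 and 22.6 CPM in naïve libraries and at 1768, 1420, 1552 and 1364 CPM with lactate, 123-fold higher (log2 fold change 6.95 ± 0.61 SE, adjusted p = 5.63e-07). Tnfrsf9, which encodes 4-1BB, rose from 5.97, 6.55, 17.0 and 18.8 CPM to 724, 844, 909 and 714 CPM (log2 fold change 6.04 ± 0.37 SE, adjusted p = 3.18e-08), and Tnfrsf4, which encodes OX40, from 4.06, 5.65, 11.3 and 15.8 CPM to 358, 400.3, 452 and 392 CPM (log2 fold change 5.44 ± 0.39 SE, adjusted p = 9.00e-08). These 3 genes were close to silent at rest, and no naïve value exceeded 23 CPM. Icos, a costimulator of the CD28 family, and Tfrc, the transferrin receptor for iron uptake, rose by 2.69 and 2.05 on the log2 scale. Cd44, often used as an activation marker, did not pass the test: it was at 201, 179.6, 87.5 and 194 CPM in naïve libraries and at 188, 169.7, 190.2 and 181 CPM with lactate (log2 fold change 0.14 ± 0.20 SE, adjusted p = 0.545). Cd38, an NAD+-consuming ectoenzyme, fell from 73.7, 75.3, 32.7 and 23.1 CPM to 13.1, 9.07, 8.99 and 8.29 CPM (log2 fold change -2.37 ± 0.34 SE, adjusted p = 4.14e-05). Naïve replicates 1 and 2 were the highest both in Cd38 and in summed myeloid markers, and the part of myeloid cells in the level of Cd38 was not tested.

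Inhibitory receptors split. Of 12, 5 were higher and 6 were lower. Those that rose were Lag3, a ligand-binding brake on the T cell receptor, Ctla4, which competes with CD28, Pdcd1, which encodes PD-1, Tigit and Cd200. Lag3 went from 25.3, 18.6, 14.5 and 12.3 CPM to 299, 374, 379.5 and 352 CPM (log2 fold change 4.32 ± 0.20 SE, adjusted p = 5.23e-09), Ctla4 from 22.0, 19.5, 27.4 and 42.6 CPM to 374, 526, 501 and 558 CPM (log2 fold change 4.13 ± 0.26 SE, adjusted p = 3.54e-08), and Pdcd1 from 2.25, 1.74, 1.51 and 10.6 CPM to 62.4, 33.4, 59.1 and 57.7 CPM (log2 fold change 3.71 ± 0.58 SE, adjusted p = 8.34e-05). Havcr2, which encodes TIM-3 and is also expressed by myeloid cells, was lower instead, at 17.6, 20.2, 14.5 and 15.0 CPM in naïve libraries and 4.92, 0.996, 2.48 and 2.70 CPM with lactate (log2 fold change -2.59 ± 0.41 SE, adjusted p = 9.60e-05). Klrg1, a receptor of terminal effector and NK cells, was at 1.35, 2.16, 0.539 and 1.51 CPM in naïve libraries and had at most 1 count in any lactate library.

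Killing genes did not rise as a whole, and granzyme B led those that did. Of 18 genes for granule contents and killing, 8 were higher and 6 were lower, with a median of 0.27. Gzmb, the serine protease that triggers apoptosis in target cells, was at 13.4, 17.5, 62.5 and 4.43 CPM in naïve replicates 1 to 4 and at 5307, 3733, 5157 and 4490 CPM in lactate replicates 1 to 4, 191-fold higher (log2 fold change 7.58 ± 0.71 SE, adjusted p = 9.37e-07). Per length, its mean level went from 57.6 TPM, rank 3224 of all tested genes, to 10270 TPM, rank 5. Prf1, the pore-forming protein that lets granzymes into the target, was at 50.7, 46.1, 61.2 and 32.4 CPM and at 431, 180, 373 and 197 CPM (log2 fold change 2.63 ± 0.33 SE, adjusted p = 1.12e-05), and the lactate libraries fell into a higher pair, replicates 1 and 3, and a lower pair, replicates 2 and 4. Granzymes of other specificity did not follow Gzmb: Gzma, a tryptase of memory and NK cells, fell from 32.4, 20.4, 13.4 and 11.7 CPM to 0.461, 0.314, 0.566 and 0.193 CPM (log2 fold change -5.68 ± 0.45 SE, adjusted p = 2.35e-07), Gzmk and Gzmm were lower as well, and Gzmc rose to no more than 3.02 CPM (log2 fold change 4.03 ± 0.49 SE, adjusted p = 8.59e-06). In naïve libraries, 8 markers of NK and innate-like cells summed to 36.9 to 374 CPM, against 65.5 to 86.3 CPM with lactate. Nkg7, a granule membrane protein, was at 193, 195, 217 and 22.1 CPM in naïve libraries and at 359.6, 352, 340.3 and 310.4 CPM with lactate and did not pass the test (log2 fold change 1.12 ± 0.46 SE, adjusted p = 0.0419). Without naïve replicate 4, the lowest library, its log2 fold change was 0.76 (adjusted p = 1.49e-05). The list as a whole took 0.225% to 0.293% of all TPM in naïve libraries and 1.17% to 1.59% with lactate, where Gzmb alone made up most of it.

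Secreted factors rose more broadly. Of 20 cytokine and chemokine genes, 12 were higher and 5 were lower, with a median of 1.92. Ifng, the antiviral cytokine interferon-γ, was at 7.72, 16.5, 9.86 and 1.12 CPM in naïve libraries and at 213, 43.0, 119 and 40.6 CPM with lactate (log2 fold change 3.56 ± 0.82 SE, adjusted p = 0.00160), and its lactate values were spread more than those of Gzmb. Il3, a growth factor for myeloid progenitors, had counts in naïve replicate 3 alone among naïve libraries and reached 7.23, 6.13, 4.81 and 2.65 CPM with lactate. Lta, Lif, Xcl1, Tnfsf11, Mif, Ccl3, Csf2, Tnf, Tnfsf14 and Ccl4 were the other cytokine genes that rose. Ccl5, a chemokine of resting memory and effector cells, moved the opposite way, from 78.7, 121, 58.3 and 58.4 CPM to 1.95, 1.21, 2.97 and 2.41 CPM (log2 fold change -5.22 ± 0.34 SE, adjusted p = 4.57e-08). Effector homing receptors and integrins did not rise as a group: of 18, 3 were higher and 8 were lower (background 33.0% and 32.0%), with a median of -0.17. Among those called, Ccr4, the receptor for CCL17 and CCL22, rose most, from 6.88, 4.93, 7.54 and 1.46 CPM to 60.9, 47.3, 68.7 and 65.0 CPM (log2 fold change 3.54 ± 0.40 SE, adjusted p = 4.58e-06).

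Effector transcription factors were higher in part. Of 27 tested, 11 were higher, 5 were lower and 11 did not pass the test, against a background of 33.0% higher and 32.0% lower. Tbx21, which encodes T-bet, a driver of effector differentiation, rose from 8.96, 16.2, 10.0 and 7.12 CPM to 64.2, 40.0, 54.8 and 55.1 CPM (log2 fold change 2.34 ± 0.24 SE, adjusted p = 2.29e-06). Irf4, the factor that translates receptor signal strength into effector gene expression, was at 70.1, 88.4, 44.6 and 248 CPM and at 442, 363, 422 and 443 CPM (log2 fold change 1.89 ± 0.42 SE, adjusted p = 0.00126), and without naïve replicate 4, the highest naïve library, the log2 fold change was 2.62. Batf3, a bZIP partner of JUN, rose most, from 5.81, 4.99, 4.26 and 1.35 CPM to 87.2, 87.1, 76.7 and 78.1 CPM (log2 fold change 4.33 ± 0.49 SE, adjusted p = 4.82e-06), whereas its relative Batf, which is needed for effector expansion, rose by 0.80. Prdm1, which encodes BLIMP-1, and Hif1a, the hypoxia factor of glycolytic effector cells, were higher by 1.27 and 1.73. Runx1, a factor that restrains effector genes in naïve T cells, fell from 58.1, 60.3, 53.9 and 40.1 CPM to 2.82, 2.83, 3.89 and 3.66 CPM (log2 fold change -4.01 ± 0.22 SE, adjusted p = 1.50e-08). Eomes, a T-box factor of memory cells, was at 26.7, 38.3, 33.7 and 35.0 CPM and at 30.7, 9.28, 17.1 and 15.2 CPM (log2 fold change -0.89 ± 0.30 SE, adjusted p = 0.0174) and was not called, although it passed in 4 of 24 alternative analyses, including the one without lactate replicate 1 (-1.27). Id3, a memory-associated inhibitor of E proteins, was not called either (adjusted p = 0.714), and its difference had the opposite sign in the library runs, -0.69 and 1.23. Within the MYC network, Myc itself, the regulator of growth, went from 249, 274, 268 and 139 CPM to 633, 573, 596 and 649.6 CPM (log2 fold change 1.40 ± 0.25 SE, adjusted p = 0.000274). Of all 11 tested genes of the network, 4 were higher and 4 were lower, near the background of 33.0% and 32.0%. Mycn was the highest of them at 3.25 and Mycl the lowest at -3.10.

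Glycolysis had the highest median of the metabolic lists. Of 21 genes for glucose uptake and glycolysis, 20 were higher with lactate (background 33.0%) and 1 was lower, and 19 rose at least 2-fold (background 21.3%), with a median log2 fold change of 3.38. Slc2a1, the glucose transporter GLUT1, rose from 42.9, 45.6, 47.0 and 54.6 CPM to 242, 338, 259.8 and 259 CPM (log2 fold change 2.53 ± 0.14 SE, adjusted p = 1.15e-08). Hk2, the inducible hexokinase that traps glucose, rose 20.4-fold, from 12.6 ± 3.28 CPM to 257 ± 42.2 CPM (mean ± SD, n = 4 each). Aldoc, an aldolase isoform, had the largest increase of the list (log2 fold change 5.15 ± 0.37 SE, adjusted p = 1.05e-07). Pfkfb4, a kinase and phosphatase that sets fructose-2,6-bisphosphate, was the exception, at 18.0, 19.2, 11.1 and 15.9 CPM in naïve libraries and 6.66, 8.44, 11.1 and 9.78 CPM with lactate (log2 fold change -0.84 ± 0.20 SE, adjusted p = 0.00194). The list, in which 2 annotated genes carry the symbol Aldoa, took 0.160% to 0.194% of all TPM in naïve libraries and 1.47% to 1.74% with lactate, a ratio of 9.44 between the means.

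The genes that make and move lactate were induced selectively. Ldha, the lactate dehydrogenase subunit favoured for lactate production, was at 294, 310.2, 359 and 262 CPM in naïve libraries and at 3346, 3538, 3821 and 3930 CPM with lactate, 11.9-fold higher (log2 fold change 3.58 ± 0.12 SE, adjusted p = 9.37e-10). Ldhb, the subunit favoured for lactate oxidation, was at 7.78, 6.73, 9.70 and 6.05 CPM and at 6.10, 8.07, 8.56 and 9.59 CPM and did not pass the test (log2 fold change 0.09 ± 0.22 SE, adjusted p = 0.709). Of the transporters, Slc16a3, which encodes MCT4, rose from 8.79, 9.97, 9.43 and 11.1 CPM to 365, 398, 387 and 417 CPM (log2 fold change 5.32 ± 0.12 SE, adjusted p = 4.40e-11), and Slc16a1, which encodes MCT1, from 77.2, 116, 80.3 and 64.7 CPM to 235, 229, 215 and 217 CPM (log2 fold change 1.40 ± 0.16 SE, adjusted p = 5.47e-06). Slc16a7, which encodes MCT2, was at 12.0, 7.21, 3.83 and 1.35 CPM in naïve libraries and at or below 0.367 CPM with lactate. Mpc1, a subunit of the mitochondrial pyruvate carrier, was not called (log2 fold change 0.37 ± 0.18 SE, adjusted p = 0.0801). Pcx, pyruvate carboxylase, was among the 10 of 21 genes for lactate and pyruvate handling that rose, and Pdk2, an inhibitory kinase of pyruvate dehydrogenase, among the 4 that fell.

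Nuclear genes for mitochondria rose almost without exception. Of 77 nuclear genes of the respiratory chain, 72 were higher and 1 was lower, with a median of 1.16. Of 77 mitochondrial ribosomal proteins, 75 were higher and 1 was lower, with a median of 1.16, and of 28 import and folding factors 23 were higher and 1 was lower. Of 21 TCA cycle genes 17 were higher and none was lower, with a median of 1.02. Fh1, fumarase, had the largest rise in the TCA cycle, from 37.4, 42.2, 35.2 and 37.1 CPM to 113, 131, 126 and 119 CPM (log2 fold change 1.68 ± 0.098 SE, adjusted p = 2.01e-08). Mrpl45, a ribosomal protein at the inner membrane, rose from 24.0, 26.3, 24.1 and 24.7 CPM to 109, 117, 134 and 130.4 CPM (log2 fold change 2.31 ± 0.095 SE, adjusted p = 2.54e-09), and Hspa9, the chaperone that pulls proteins into the matrix, from 208, 213, 229 and 269 CPM to 1188, 1051, 1031 and 1033 CPM (log2 fold change 2.23 ± 0.16 SE, adjusted p = 1.04e-07). The spread between replicates of these genes was small against the difference. The exceptions were Mrpl24, which fell by 0.41 on the log2 scale and whose exons overlap those of Rrnad1 on the opposite strand over 26.3% of their bases, Tomm34, a cochaperone of import that fell by 0.41 as well, and Atp5l, an ATP synthase subunit that fell by 0.87.

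Genes of the mitochondrial genome gave another picture. Of 7 respiratory chain genes encoded there, 3 were lower, 1 was higher and 3 did not pass the test. CYTB, cytochrome b of complex III, fell from 3831, 3422, 3689 and 3555 CPM to 780, 549.5, 662 and 802 CPM (log2 fold change -2.38 ± 0.13 SE, adjusted p = 1.24e-08), and ND4 and ND5, subunits of complex I, fell as well. COX1, a core subunit of complex IV and the most abundant of them, was at 8215, 7743, 7946 and 6922 CPM and at 7071, 6358, 5129 and 6173 CPM (log2 fold change -0.32 ± 0.10 SE, adjusted p = 0.0135), which passed the test in 10 of 24 alternative analyses, among them those without naïve replicate 4, media replicate 4 or lactate replicate 1. Its log2 fold change was between -0.41 and -0.27 in all 24. ND6, the subunit encoded on the light strand, rose from 12.1, 14.8, 12.5 and 10.4 CPM to 108, 175, 43.9 and 38.9 CPM (log2 fold change 2.88 ± 0.46 SE, adjusted p = 8.78e-05). The 7 genes took 4.92% to 5.64% of all TPM in naïve libraries and 2.83% to 3.74% with lactate, while the nuclear list took 1.02% to 1.08% and 2.07% to 2.20%. The ribosomal RNAs of the mitochondrion were higher: mt-Rnr1 was at 217, 274, 280.2 and 279 CPM in naïve libraries and at 2913, 3934, 10890 and 13290 CPM with lactate, with log2 fold changes of 3.74 within the low run and 5.44 within the high run (interaction adjusted p = 0.00550). Libraries were made from polyadenylated RNA, and the part of polyadenylation in levels of ribosomal RNA was not tested.

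**Figure D4:**
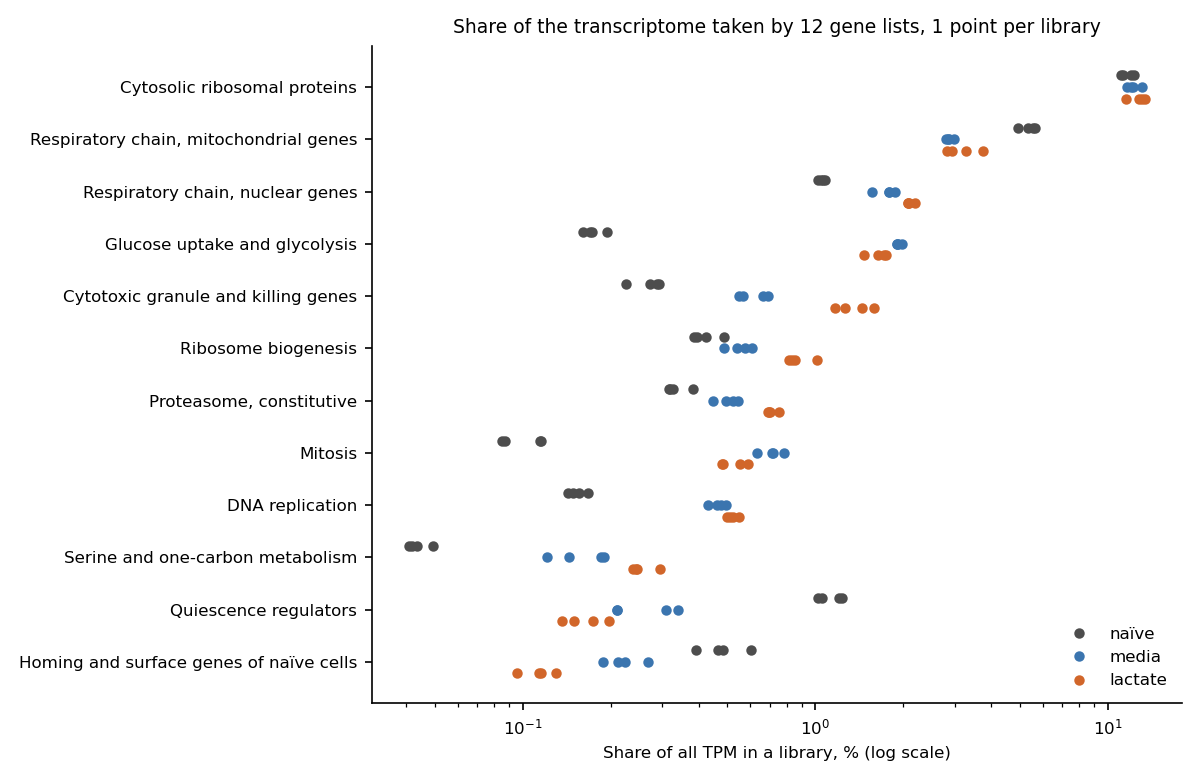
Share of all TPM in a library taken by 12 gene lists (x axis, %, log scale), with 1 point per library and the groups in colour. Glycolysis takes 0.160% to 0.194% in naïve libraries and 1.47% to 1.74% with lactate. The 7 respiratory chain genes of the mitochondrial genome take 4.92% to 5.64% and 2.83% to 3.74%, without the ribosomal RNAs of the mitochondrion.

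Pathways that feed growth rose with few exceptions. Of 14 genes of serine and one-carbon metabolism, which supply carbon units for nucleotides, 12 were higher and 1, the methionine synthase Mtr, was lower, with a median of 2.72. Phgdh, the entry enzyme of serine synthesis, rose from 31.7, 33.6, 41.4 and 22.0 CPM to 332, 314, 312 and 293 CPM (log2 fold change 3.28 ± 0.21 SE, adjusted p = 3.67e-08). Psat1, the next enzyme in that pathway, rose 21.3-fold (log2 fold change 4.42 ± 0.17 SE, adjusted p = 1.80e-09), and Mthfd2, the mitochondrial folate enzyme, 12.9-fold (log2 fold change 3.69 ± 0.16 SE, adjusted p = 2.97e-09). Aldh1l2, another mitochondrial folate enzyme, had 1 count in the 4 naïve libraries together and was at 11.9, 11.6, 6.23 and 9.40 CPM with lactate. Nucleotide synthesis moved the same way, with 13 of 14 purine genes and 12 of 14 pyrimidine and deoxynucleotide genes higher. Hprt, the purine salvage enzyme, rose by 1.84, Cad, which starts pyrimidine synthesis, by 1.52, and Rrm2, the regulated subunit of ribonucleotide reductase, by 3.25. Ctps2, a CTP synthase, was the pyrimidine gene that fell (log2 fold change -0.73 ± 0.12 SE, adjusted p = 0.000140).

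Amino acid supply was more selective. Of 17 genes of the ATF4 response, which cells mount when amino acids run short, 13 were higher and 2 were lower, with a median of 2.21. Asns, asparagine synthetase and a target of the stress factor ATF4, was at 2.76, 6.31, 3.77 and 2.91 CPM in naïve libraries and at 243, 187, 168 and 185 CPM with lactate (log2 fold change 5.64 ± 0.32 SE, adjusted p = 1.59e-08). Slc7a5, the transporter of large neutral amino acids, rose from 53.5, 75.9, 60.7 and 92.4 CPM to 875, 649, 695 and 709.9 CPM (log2 fold change 3.37 ± 0.27 SE, adjusted p = 2.81e-07), and Slc7a3, a cationic transporter, to 43.1, 38.8, 27.6 and 25.4 CPM from 0.845, 1.14, 1.89 and 0.616 CPM. Of 14 amino acid transporters 7 were higher and 4 were lower, and Slc43a1 fell most, by 3.13 on the log2 scale. Slc7a11, the cystine transporter, was at 3.89, 3.73, 1.08 and 19.7 CPM in naïve libraries and at 2.26, 0.577, 1.20 and 0.530 CPM with lactate (log2 fold change -2.63 ± 0.78 SE, adjusted p = 0.00814). Its call was lost in 11 of 23 alternative analyses, among them those that left out naïve replicate 4, lactate replicate 2, 3 or 4 or media replicate 1, 2 or 3. Naïve replicate 4 was far above the others, and without it the log2 fold change was -1.34 (adjusted p = 0.0436). Cth, which makes cysteine from cystathionine, rose to 60.3, 41.7, 54.0 and 45.3 CPM from no more than 0.647 CPM. All 19 aminoacyl-tRNA synthetases were higher, with a median of 1.61 and Gars, the glycyl enzyme, in front (log2 fold change 2.48 ± 0.14 SE, adjusted p = 1.73e-08). Of 29 genes of sterol and fatty acid synthesis, 27 were higher and none was lower, with a median of 2.16. Scd2, a desaturase, rose from 114, 122, 122 and 67.8 CPM to 1944, 2409, 2066 and 2071 CPM (log2 fold change 4.32 ± 0.18 SE, adjusted p = 2.71e-09), and Hmgcs1, an early enzyme of the sterol pathway, by 2.73.

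Genes for protein synthesis and turnover rose unevenly. Of 50 ribosome biogenesis factors, 41 were higher with lactate and none was lower, with a median of 0.85. Npm1, the nucleolar chaperone nucleophosmin, was at 501, 583, 573 and 661 CPM in naïve libraries and at 1943, 2074, 2131 and 2086 CPM with lactate (log2 fold change 1.83 ± 0.098 SE, adjusted p = 1.17e-08), and Nop56, a core protein of the particles that methylate ribosomal RNA, at 134, 131, 151 and 163 CPM and 360.2, 253, 318 and 312 CPM (log2 fold change 1.10 ± 0.16 SE, adjusted p = 4.33e-05). Cytosolic ribosomal proteins changed less: of 79, 39 were higher, 3 were lower and 37 did not pass the test, with a median of 0.32, and their share of all TPM was 11.1% to 12.3% in naïve libraries and 11.6% to 13.4% with lactate. The list's extremes were a pair of paralogs, Rps27l, a p53-responsive form, which rose by 2.98, and Rps27, which fell by 0.95 on the log2 scale. All 34 proteasome subunits and all 8 subunits of the CCT chaperonin, which folds actin and tubulin, were higher, with medians of 1.26 and 1.47. Psmb7, a catalytic subunit, rose from 54.3, 57.4, 59.2 and 60.3 CPM to 190.2, 202, 212 and 209 CPM (log2 fold change 1.82 ± 0.088 SE, adjusted p = 6.52e-09), and Tcp1, the CCT α subunit, from 228, 240.1, 248 and 257 CPM to 1085, 1092, 1173 and 1093 CPM (log2 fold change 2.19 ± 0.086 SE, adjusted p = 1.80e-09). In the endoplasmic reticulum, 11 of 19 chaperone and stress genes were higher and 3 were lower, with Sdf2l1, a partner of the chaperone BiP, at 2.24 and Dnajb9, a cochaperone of BiP, at -2.94.

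Cell cycle genes rose almost without exception. All 39 DNA replication genes were higher, with a median of 2.11, and so were 38 of 40 mitosis genes, with a median of 3.70. Mcm2, a subunit of the replicative helicase, was at 80.4, 100.3, 77.1 and 69.8 CPM in naïve libraries and at 356, 247, 304 and 334 CPM with lactate (log2 fold change 1.92 ± 0.16 SE, adjusted p = 3.22e-07), and Mcm10, which activates that helicase, rose 19.4-fold. Mki67, the proliferation antigen Ki-67, was at 95.9, 299.5, 67.3 and 45.3 CPM and at 972, 708, 1011 and 931 CPM (log2 fold change 2.83 ± 0.47 SE, adjusted p = 0.000137). Ccnb1, the mitotic cyclin B1, rose from 3.21, 7.57, 3.13 and 2.35 CPM to 132, 114, 112 and 108 CPM (log2 fold change 4.84 ± 0.29 SE, adjusted p = 2.42e-08). Naïve replicate 2 was the highest naïve library for these 4 genes and still lay below every lactate library. Regulators of G1 were mixed: of 22, 14 were higher and 3 were lower. The CDK inhibitor Cdkn1a, which encodes p21, rose with the cycle genes, from 5.41, 6.31, 6.04 and 15.5 CPM to 161, 198, 151 and 159 CPM (log2 fold change 4.33 ± 0.35 SE, adjusted p = 2.34e-07), while Ccnd1, cyclin D1, had at most 1 count in any lactate library after 22.2, 21.3, 14.3 and 7.79 CPM in naïve cells. Ccnd2, the main D cyclin of T cells, did not pass the test (log2 fold change 0.25 ± 0.25 SE, adjusted p = 0.396).

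Promoters of 34 of the 40 mitosis genes were found in the RefSeq table for GRCm38.p6, each as 250 bases before and 50 after the start. The CCAAT box, with the letters CCAAT on either strand, was present in 25 of the 34 (73.5%), against 37.9% of all 27025 promoters in the table and 41.8% of those of genes called higher. The cell cycle homology region, or CHR element, with the letters TTTGAA on either strand, was present in 25 of 34 (73.5%), against 18.1% of all promoters and 14.4% of those of genes called higher. In the 250 upstream bases alone it was in 13 of 34 (38.2%), against 16.3%. A match describes letters and is not a sign of binding. For 4 of these genes the stretch directly upstream of the start is printed 5′ to 3′ on the strand of the gene, with CCAAT boxes and CHR elements in capitals, to show how the elements recur in genes that were higher with lactate. The Ccnb2 stretch holds CCAAT boxes and no CHR element.
Mki67, chr7:135716380-135716579, minus strand: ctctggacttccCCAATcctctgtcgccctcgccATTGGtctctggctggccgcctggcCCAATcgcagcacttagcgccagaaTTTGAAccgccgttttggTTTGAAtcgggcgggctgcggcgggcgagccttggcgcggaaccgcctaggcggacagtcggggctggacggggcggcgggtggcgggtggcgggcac
Top2a, chr11:99024190-99024389, minus strand: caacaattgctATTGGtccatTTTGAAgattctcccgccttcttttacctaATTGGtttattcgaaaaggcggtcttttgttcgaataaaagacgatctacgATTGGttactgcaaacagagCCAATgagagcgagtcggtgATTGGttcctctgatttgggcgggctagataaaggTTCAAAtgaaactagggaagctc
Ccnb2, chr9:70421555-70421704, minus strand: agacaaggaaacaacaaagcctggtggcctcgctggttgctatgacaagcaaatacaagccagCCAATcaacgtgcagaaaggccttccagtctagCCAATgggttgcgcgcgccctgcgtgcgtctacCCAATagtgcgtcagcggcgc
Kif11, chr19:37376282-37376381, plus strand: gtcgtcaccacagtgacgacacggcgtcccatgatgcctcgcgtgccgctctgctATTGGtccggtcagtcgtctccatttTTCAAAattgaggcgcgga
None of these stretches overlapped an exon annotated in GENCODE M21. Top2a, the topoisomerase that untangles chromosomes, rose from 52.1, 91.4, 58.4 and 39.7 CPM to 1166, 1142, 701 and 702 CPM, Ccnb2, cyclin B2, from 10.8, 27.3, 8.14 and 4.59 CPM to 141, 162, 150.1 and 151 CPM, and Kif11, the kinesin that separates the spindle poles, from 17.3, 41.2, 17.8 and 14.3 CPM to 391, 396, 328 and 336 CPM, with log2 fold changes of 3.94, 3.58 and 4.00.

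For ribosome biogenesis, 45 of 50 promoters were found. The ETS site, CCGGAAGT on either strand, was present in 16 of them (35.6%), against 4.0% of all promoters. Genes called higher had it in 10.1% and genes not called in 9.38%. The E-box that MYC and MAX bind, CACGTG, was present in 11 (24.4%), against 7.24% of all promoters. Genes called higher had it in 10.3% and genes not called in 10.4%. In the 250 upstream bases alone the ETS site was in 9 of the 45, against 2.93% of all promoters and 7.39% of those of genes called higher. There the E-box was in 6.67%, against 6.05% of all promoters and 8.72% of those of genes called higher. The stretches of 3 members are printed with the element in capitals, the ETS site for Gar1 and Nip7 and the E-box for Nop2, as examples within the upstream bases.
Gar1, chr3:129831397-129831496, minus strand: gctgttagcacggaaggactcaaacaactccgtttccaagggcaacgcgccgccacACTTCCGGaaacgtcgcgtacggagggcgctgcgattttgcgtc
Nip7, chr8:107056767-107056876, plus strand: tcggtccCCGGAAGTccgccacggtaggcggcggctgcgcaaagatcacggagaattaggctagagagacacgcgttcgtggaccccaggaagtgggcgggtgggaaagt
Nop2, chr6:125131783-125131882, plus strand: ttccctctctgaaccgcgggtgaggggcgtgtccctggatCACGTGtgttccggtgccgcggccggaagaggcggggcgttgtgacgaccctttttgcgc
Gar1, a protein of the particles that pseudouridylate ribosomal RNA, was at 24.3, 32.2, 32.5 and 31.0 CPM in naïve libraries and 87.5, 74.1, 80.9 and 80.8 CPM with lactate. Nip7, an assembly factor of the large subunit, was at 30.8, 31.7, 31.7 and 38.9 CPM and 72.4, 58.1, 70.4 and 67.8 CPM. Nop2, a methyltransferase of ribosomal RNA, was at 56.0, 62.6, 64.6 and 66.2 CPM and 178, 113, 127 and 124 CPM. The log2 fold changes of the 3 genes were 1.43, 1.01 and 1.12.

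Interferon-stimulated genes fell. Of 30 genes of the type I response, 25 were lower and none was higher (background 32.0% lower), with a median of -3.28. Ifi44, an antiviral effector, was at 6.65, 3.67, 2.26 and 0.448 CPM in naïve libraries and had no count with lactate, which makes it at least 19.5-fold lower against a floor of 3 counts per library. The summed level of the list was 802 to 2244 CPM in naïve libraries and 501 to 569 CPM with lactate. Naïve replicate 4 was the library at 802 CPM, and the other naïve libraries were at 1894 to 2244 CPM. Without replicate 4, 27 genes were lower and 1 was higher, with a median of -3.54. Within the library runs the list median was -3.91 for the low and -1.57 for the high run. Of 26 interferon-γ-induced genes, which include antigen presentation genes, 16 were lower and 2 were higher. Gbp10, a guanylate-binding protein, fell most (log2 fold change -3.96, adjusted p = 0.00289), with a call that was lost in 5 of 23 alternative analyses, including those without naïve replicate 3 or lactate replicate 1 or 2, and exons that overlap Gm43302 on the same strand over 46.3% of their bases. Socs1, the feedback inhibitor of cytokine receptors, rose instead, from 32.4, 29.6, 47.5 and 56.5 CPM to 127, 127, 99.8 and 94.8 CPM (log2 fold change 1.43 ± 0.33 SE, adjusted p = 0.00176).

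The fall of Fos and Hspa1a differed between the library runs. Fos, a component of AP-1 that stimulation induces rapidly, was at 2713, 2388, 2530 and 34.6 CPM in naïve replicates 1 to 4 and at 1.18, 2.62, 50.4 and 48.1 CPM with lactate (log2 fold change -6.23 ± 1.6 SE, adjusted p = 0.00406). Hspa1a, the inducible HSP70, was at 1618, 2461, 2420 and 4.82 CPM and at 1.13, 0.472, 2.83 and 2.94 CPM (log2 fold change -9.80 ± 1.6 SE, adjusted p = 0.000120). In both genes naïve replicate 4 lay far below the other naïve libraries, and for Fos it lay below lactate replicates 3 and 4. Without naïve replicate 4 the log2 fold changes were -6.64 for Fos and -10.22 for Hspa1a, and Fos did not pass the test without lactate replicate 1 or 2 (adjusted p = 0.0104 and 0.0122). Within the low run the log2 fold changes were -10.39 for Fos and -11.39 for Hspa1a, and within the high run they were 0.51 and -0.74, with interaction adjusted p-values of 1.14e-05 and 0.00714. Of 21 immediate early genes, 9 were lower and 2 were higher (11 and 4 without naïve replicate 4), with a list median of -1.54 among low-run libraries and of -0.02 among high-run libraries. Fosl1, an AP-1 component of sustained activation, was among those that rose, from 0.169, 0.361, 0.162 and 1.68 CPM to 7.43, 4.98, 6.65 and 5.69 CPM (log2 fold change 3.37 ± 0.59 SE, adjusted p = 0.000209). Of the 8944 called genes, 8853 (99%) had the same sign in both runs. These genes were called from a fit that pooled the libraries of both runs, so that agreement in sign was partly built into their selection.

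**Figure D5:**
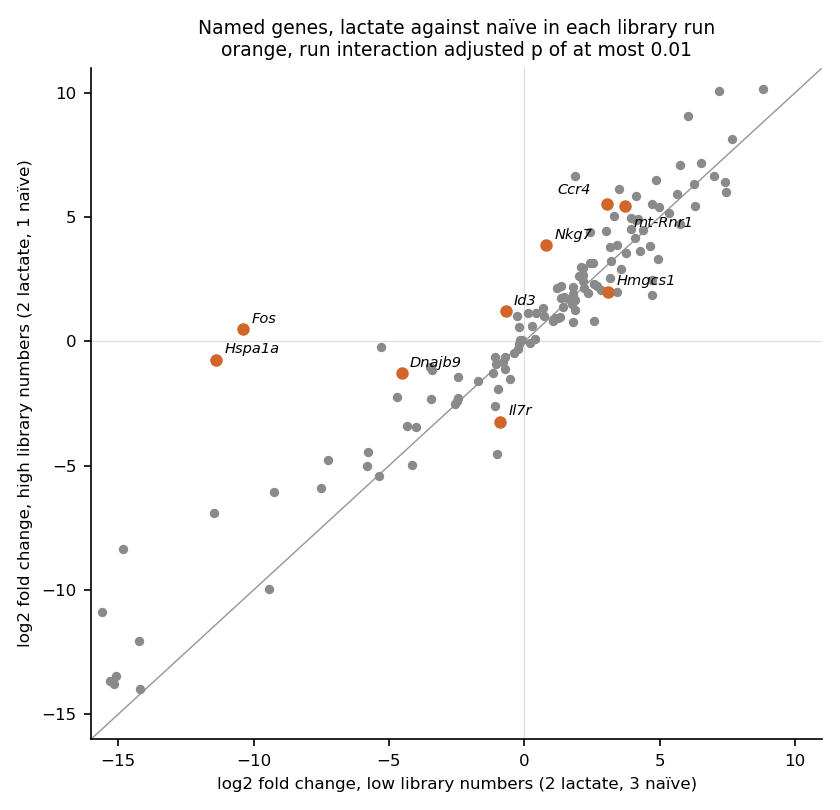
Log2 fold change, lactate against naïve, of the named genes within the low run of library numbers (x axis, 2 lactate and 3 naïve libraries) and within the high run (y axis, 2 lactate and 1 naïve library), with a line of equality and orange for the 9 genes with a run interaction at an adjusted p of at most 0.01. Fos and Hspa1a lie far from the line, at -10.39 and -11.39 in the low run and at 0.51 and -0.74 in the high run.

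HIF-1 targets, genes that low oxygen or HIF-1α induces, were mostly higher, 16 of 21 with 2 lower and a median of 2.11. The list overlaps with that of glycolysis, and Pfkfb4 was the lowest member of both, so the lists are not separate results. Egln3, the prolyl hydroxylase that HIF-1 induces, rose from 4.23, 6.31, 10.5 and 2.97 CPM to 318, 449.7, 445 and 369 CPM (log2 fold change 6.04 ± 0.34 SE, adjusted p = 1.63e-08). Of 11 genes of the hyperosmotic response, 3 were higher and 4 were lower, near the background of 33.0% and 32.0%, with a median of -0.36. Hspa1a was the lowest of them (log2 fold change -9.80). Hspa4l, an HSP110 chaperone, rose from 23.4, 27.2, 23.8 and 53.5 CPM to 92.2, 89.6, 129.8 and 126 CPM (log2 fold change 1.77 ± 0.25 SE, adjusted p = 2.93e-05). The list summed to 1971 to 9112 CPM in naïve libraries, with replicate 4 the lowest, and to 1457 to 1910 CPM with lactate. The BCL2 family was mixed: of 16 genes, 7 were higher and 3 were lower (background 33.0% and 32.0%), with a median of 0.32 and a lowest log2 fold change of -6.01. Bcl2l1, which encodes the survival protein BCL-XL, rose most, from 22.9, 56.2, 18.5 and 18.5 CPM to 187, 167, 177 and 149.7 CPM (log2 fold change 2.55 ± 0.34 SE, adjusted p = 1.81e-05). Of 315 Zfp-numbered zinc finger genes, a large class of repressors, 139 were lower and 34 were higher, with a median of -0.48. They took 0.627% to 0.724% of all TPM in naïve libraries and 0.427% to 0.476% with lactate.

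Among single genes with at least 20 CPM in a group and no overlap, the largest increases by fold were those of Maats1, Cth, Gzmb, Pla1a, Nrn1, Gm17767, Etv4, Il2ra, Lama5 and Fgf11. Maats1, a gene of motile cilia, was at 0, 0, 0.269 and 0 CPM in naïve libraries and at 41.7, 23.0, 30.7 and 33.5 CPM with lactate. Nrn1, which encodes neuritin, rose from 1.07, 0.240, 2.32 and 2.58 CPM to 113, 207, 243 and 278 CPM (log2 fold change 7.06 ± 0.50 SE, adjusted p = 9.19e-08), and Etv4, an ETS factor, from 0.169, 0.180, 0.431 and 0 CPM to 29.7, 21.0, 29.4 and 21.4 CPM (log2 fold change 6.96 ± 0.47 SE, adjusted p = 6.43e-08). Pla1a, a phospholipase, reached 18.8, 21.6, 27.8 and 21.3 CPM, Lama5, the laminin α5 chain, 45.3, 51.1, 71.0 and 45.2 CPM, Fgf11 12.1, 36.0, 15.8 and 18.7 CPM and Gm17767 67.0, 66.4, 60.3 and 68.2 CPM, each from no more than 1.56 CPM in any naïve library. The largest decreases were those of Slc4a1, the anion exchanger of red cells, Mrc1, Fcna, C1qb, Slc40a1, Adgre4, Clec4n and Treml4, which are genes of macrophages and related cells, and S100a8 and S100a9, the calprotectin genes of neutrophils. Mrc1, the mannose receptor, was at 449.9, 262, 133 and 88.9 CPM in naïve libraries and had no count with lactate, at least 1400-fold lower against the floor of 3 counts per library, and C1qb, of complement, was at 371, 240.3, 107 and 78.7 CPM and at least 1190-fold lower. Per length, the 10 features with the highest mean level with lactate were Gzmb, mt-Rnr1, COX1, Rplp1, Eef1a1, mt-Rnr2, ND1, Eef2 and the short features Gm23935 and Mir6236.

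Beside activation in plain media, which shares its naïve libraries with this comparison, part of the programme stood at another level. In the direct test between the activated groups, 25.1% of genes differed, 13.9% higher and 11.1% lower with lactate. Tags in the descriptions match 3 media libraries to lactate libraries of the same run: media replicate 1 to lactate replicate 1, media replicate 3 to lactate replicate 2 and media replicate 4 to lactate replicate 4. With these pairs as a block, and without the 2 activated libraries that have no partner, 6.88% of genes differed, 4.19% higher and 2.69% lower. Gzmb was at 1629, 1181, 1677 and 1292 CPM in media replicates 1 to 4, and the difference of lactate from media on the log2 scale was 1.69 (adjusted p = 0.0261), short of the threshold although every lactate library lay above every media library. Prf1 and Ifng were at 56.7, 31.3, 28.5 and 32.1 CPM and at 5.73, 1.53, 2.84 and 14.5 CPM in media, and were higher with lactate by 2.99 (adjusted p = 8.01e-05) and 4.09 (adjusted p = 0.00239). Il2ra was at 703, 403, 716 and 462 CPM in media, below every lactate library, with a difference of 1.42 (adjusted p = 0.0322) that did not pass the test. Klf2, at 45.6, 163, 51.4 and 169 CPM in media, overlapped with its lactate values and did not pass the unpaired test, with a difference of -1.98 (adjusted p = 0.0135). Within the pairs Klf2 was lower with lactate in 3 of 3, and it passed the paired test (-1.95 ± 0.31 SE, adjusted p = 0.00615). Prf1 passed that test too (adjusted p = 0.00183), whereas Ifng (3.54, adjusted p = 0.0448), Gzmb (adjusted p = 0.205) and Il2ra (adjusted p = 0.214) did not, although each was higher with lactate in 3 of 3 pairs. By list, 9 of 20 cytokines were higher with lactate than in media and 2 were lower, against a background of 13.9% and 11.1%, and in the paired test 2 were higher and 2 were lower.

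Growth genes stood at other levels in the activated groups. In plain media, 3 ribosome biogenesis factors were higher and 17 were lower than in naïve cells (median -0.38), whereas under lactate 41 were higher and none was lower (median 0.85), and 48 of 50 were higher with lactate than in media, or 37 in the paired test (background 4.19%). Nop56 was at 121, 76.4, 120.4 and 129 CPM in media, below its mean naïve level of 145 CPM, and differed from lactate by 1.48 (adjusted p = 7.40e-05). Mitochondrial ribosomal proteins, of which 51 of 77 were higher with lactate than in media (22 when paired), and nuclear respiratory genes, of which 44 of 77 were higher (11 when paired), had medians against naïve of 0.60 and 0.72 in media beside 1.16 and 1.16 with lactate. Glycolysis and the cell cycle had these medians: 3.31 in media and 3.38 with lactate for glycolysis, 3.93 and 3.70 for mitosis. Between the activated groups, 1 glycolysis gene was higher and 4 were lower with lactate, of 21 tested (background 13.9% and 11.1%). Among the 4, Aldoc, at 331, 373, 298 and 409.9 CPM in media, differed by -2.02 (adjusted p = 0.000368). In the paired test Aldoc had an adjusted p of 0.0127, and 1 glycolysis gene was lower and none was higher (background 2.69% and 4.19%). HIF-1 targets and sterol synthesis were lower with lactate than in media for 8 of 21 and 6 of 29 genes (background 11.1%), and higher for none. In the paired test 2 HIF-1 targets and no sterol gene were lower (background 2.69%). Type I interferon-stimulated genes were lower with lactate than in media for 13 of 30 genes (background 11.1%) and higher for none. In the paired test 1 was lower (3.33%), near the background of 2.69%.

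In GRCm38, GENCODE M21 places the protein-coding genes that carry these results as follows: Klf2 (ENSMUSG00000055148) at chr8:72319033-72321656 on the plus strand, Il2ra (ENSMUSG00000026770) at chr2:11642807-11693193 on the plus strand, Gzmb (ENSMUSG00000015437) at chr14:56258838-56262260 on the minus strand, Prf1 (ENSMUSG00000037202) at chr10:61297833-61304680 on the plus strand, Ldha (ENSMUSG00000063229) at chr7:46841475-46855627 on the plus strand, and Slc16a3 (ENSMUSG00000025161) at chr11:120948480-120960868 on the plus strand. It places Ifng (ENSMUSG00000055170) at chr10:118441046-118445892 on the plus strand, where Gm49751 overlaps 25.9% of its exon bases on the same strand, and Nop56 (ENSMUSG00000027405) at chr2:130274430-130279313 on the plus strand, where 8.0% of the exon bases are shared with Snord57, Gm23187, Gm23650 and Gm24451 on that strand and 0.122% with Idh3b on the opposite strand. Counts are per gene over all exons.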

How the data were processed

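RNA from CD8+ T cells was sequenced after polyA-based, strand-specific library preparation. Per the labels and the study's methods, the authors demultiplexed reads (bcl2fastq 2.20.0.422), aligned them to GRCm38 (STAR 2.7.5b), removed PCR duplicates, which can lower the counts of highly expressed genes, and deposited raw counts of uniquely mapped reads per gene (featureCounts) for 12 libraries. The strand setting is not given in the sources used here, so reads of overlapping genes on opposite strands may not be separated.

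Genes with at least 1 CPM in at least 3 libraries were kept. The 12 libraries were fitted together by group with edgeR 4.0.16 (TMM scaling, quasi-likelihood test) in R 4.3.3, and genes with a Benjamini-Hochberg adjusted p of at most 0.01 in the contrast of lactate with naïve were called. SEs were obtained as the ratio of log2 fold change to the square root of F. Fits were tested on simulated data in which 100 genes changed 2-fold and 100 changed 4-fold, and 57% and 90% of them were recovered. Far fewer genes changed there than in the data, so these shares do not give the recovery in the reported comparison. limma 3.58.1 voom and DESeq2 1.42.0 served as alternatives. The library run was read from the library numbers in the labels, which fall into a low and a high range.

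Media and lactate libraries with the same tag and run deviated together from their group means (r = 0.374, 0.211 and 0.553). Pairs of the same run with other tags gave r of -0.0249, 0.0245, 0.0811, 0.297 and 0.371, which overlapped with these values. The parts of tag and run in them were not tested. A test with the tag pairs as a block was run beside the unpaired one.

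The members and gene lists were chosen with earlier results of these data known, and the symbols of mitochondrial genes were matched to the deposited table after it was seen. Named genes are a chosen core set, the 10 largest increases and decreases among called genes without overlap and with a mean of at least 20 CPM in a group, the called member with the largest increase and with the largest decrease in each list, and the 10 genes highest in TPM under lactate. Members named beyond this rule, among them Cd8a, Hif1a, Top2a, Ccnb2, Kif11, Gar1, Nip7 and Nop2, were chosen after their values were seen. Promoters come from RefSeq (GRCm38.p6) and matched 9966 of the 13767 tested genes. Of 13780 gene identifiers, 13765 were found in GENCODE M21. Not every named gene is reported here.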

Additional observations from a re-analysis of the deposited data

Results flagged for a closer look

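Naïve replicate 4 was an outlier of its group for 14 named genes, by a gap to the nearest library that was large against the range of the 4 values. It was high for Atp5l (18.8 CPM, others 12.2 to 13.0), Bach2 (480 CPM, others 124 to 139), Cdkn1a (15.5 CPM, others 5.41 to 6.31), Icos (89.3 CPM, others 33.0 to 36.9), Il7r (1270 CPM, others 347 to 380), Nip7 (38.9 CPM, others 30.8 to 31.7) and S1pr1 (955 CPM, others 416 to 470). It was low for Dnajb9 (57.8 CPM, others 125 to 134), Fos (34.6 CPM, others 2390 to 2710), Hspa1a (4.82 CPM, others 1620 to 2460), Klf2 (1120 CPM, others 1930 to 2140), Myc (139 CPM, others 249 to 274), Nkg7 (22.1 CPM, others 193 to 217) and Scd2 (67.8 CPM, others 114 to 122). The part of the library run in these values was not tested.

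Other libraries stood out for single genes. Naïve replicate 3 was low in Cd44 (87.5 CPM, others 180 to 201), and naïve replicate 1 was low in mt-Rnr1 (217 CPM, others 274 to 280) and Gar1 (24.3 CPM, others 31.0 to 32.5). Lactate replicate 1 was low in Cox7a1 (0.666 CPM, others 1.63 to 1.89) and Rps27 (407 CPM, others 521 to 547) and high in Hspa9 (1190 CPM, others 1030 to 1050). Lactate replicate 2 was low in Hif1a (414 CPM, others 514 to 525) and Pdcd1 (33.4 CPM, others 57.7 to 62.4), and lactate replicate 3 was high in Tcp1 (1170 CPM, others 1080 to 1090). Chance alone marks about 1 in 20 groups in this way.

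For 9 named genes the log2 fold change of lactate against naïve differed between the high and the low run of library numbers in a test of the interaction. The difference, high minus low, was 10.89 for Fos, 10.65 for Hspa1a, 3.245 for Dnajb9, 3.058 for Nkg7, 2.449 for Ccr4, 1.924 for Id3, 1.704 for mt-Rnr1, -1.106 for Hmgcs1 and -2.345 for Il7r. The adjusted p of the interaction was 1.14e-05 for Fos, 7.60e-05 for Nkg7 and 0.00965 for Ccr4, with the other 6 genes between. The high run has 1 naïve library, so that run and library cannot be told apart there.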

How the results depend on the processing

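No gene that was called in both the reported and an alternative analysis changed direction, in any of 26 alternatives. Apart from a looser threshold (10266 genes at an adjusted p of 0.05) and stricter filters, other tests, scalings and model terms called between 8384 and 9429 genes in place of 8944, and the share called higher was 46.8% to 51.9%. A test against a 2-fold change called 4056 genes, 1984 higher and 2072 lower. With at least 10 counts in every library, 6948 genes were called (52.6% higher) and 3917 changed at least 2-fold, because fewer genes were tested, and the medians of the inhibitory receptors (1.97) and of the markers of CD4 T cells (1.83) were positive, with the members at low counts left out. Leaving out 1 library in turn gave 8282 to 9434 genes, 3997 to 4835 higher, 4081 to 4677 lower and 5828 to 6071 changed at least 2-fold. Scaling moved the median of all genes by less than 0.1.

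Replicate numbers did not pair naïve with lactate libraries: the correlations of same-numbered libraries were -0.137, -0.0118, -0.0278 and -0.0129. With the replicate number as a block 8851 genes were called, and of the named genes the call of Slc7a11 was lost. Between lactate and media, pairing libraries by tag and run, an alternative chosen after seeing the data, called 947 genes (577 higher, 370 lower) in place of 3451. The same 10 libraries without the replicate block gave 1275. Among named genes, calls changed in some alternative for COX1, Slc7a11, Gbp10, Eomes, Eef1a1, Fos, Hspa1a (adjusted p = 0.0555 with voom), Mpc1 and Nkg7, and the cause was not tested.

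With 4 libraries a group, an exact permutation test of a single gene cannot give a p below 0.0286, so that the adjusted p-values rest on the pooled spread. The median SD of log2 CPM was 0.204 in naïve and 0.146 in lactate libraries. At the depth reached, a floor of 3 counts corresponds to 0.167 CPM in a lactate library, and differences below it were not detectable.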

Other observations

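Transcripts of Y-linked genes and of Xist were both above 1 CPM in 3 of 4 naïve, 3 of 4 media and 2 of 4 lactate libraries. Y-linked genes summed to 0.113 CPM in naïve replicate 1, to 0 in media replicate 3 and lactate replicate 2, and to 0.141 CPM in lactate replicate 3, against 85.3 CPM in lactate replicate 1 and 179 CPM in lactate replicate 4. None of the sex-linked genes differed between lactate and naïve libraries. Whether a library with both kinds of transcript came from a single mouse was not tested. Lactate replicates 1 and 3 carry the same tag in their descriptions but, per the study, came from separate mice, and they were the higher pair for Prf1 and Ifng.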
